A study of Mus musculus with 2 samples.

Results

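Glucose enters a cell through facilitative transporters and is split in glycolysis, and 10 genes of this route were read in the cells of the mouse pancreas on embryonic day 13.5. The genes were chosen by symbol, 10 of the 27998 genes in the count tables, and all 10 were found. They encode the basal glucose transporter Slc2a1 (GLUT1), the low-affinity transporter Slc2a2 (GLUT2), hexokinase 2 (Hk2), glucose-6-phosphate isomerase (Gpi1), aldolase A (Aldoa), triosephosphate isomerase (Tpi1), phosphoglycerate kinase 1 (Pgk1), enolase 1 (Eno1), muscle pyruvate kinase (Pkm) and lactate dehydrogenase A (Ldha). Hexokinase traps glucose as its phosphate, the middle enzymes turn it into pyruvate with a yield of ATP, and lactate dehydrogenase regenerates NAD+ by reducing pyruvate to lactate. Cells that keep pyruvate for the mitochondria import it through the mitochondrial pyruvate carrier. Slc2a2 is known as a transporter of the adult beta cell and liver and as a surface marker of embryonic pancreas progenitors. Mature beta cells are known for very low levels of lactate dehydrogenase and of low-Km hexokinases.

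The series asks about DPY30, a shared subunit of the Trithorax group complexes that methylate histone H3. It holds 1 control and 1 knockout-titled pancreas, each from a single C57BL/6 embryo, and the series calls the second genotype Dpy30∆P. For the Cre driver and the deleted part of the gene, the sources used here say nothing. The tissue was digested with trypsin, live cells excluding the dye 7-AAD were sorted, and droplet 3' libraries (10x Chromium, version 2) were made. Molecules were counted by their unique molecular identifiers (UMIs), and a level below is counts per 1000000 UMIs of a pool of cells (CPM). With 1 library per group no test was possible, and every interval is an exact 95% interval for counting error alone. The 2 libraries share 22 cell barcodes.

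Cells were sorted into 7 gates by raw UMIs of marker genes, none of which is among the 10. The tip gate (marker genes of the acinar-fated end of the branching epithelium, Cpa1 and Ptf1a among them) held 266 control and 217 knockout-labelled cells. The trunk gate (Spp1 and Sox9, without Neurog3 or Chga) held 157 and 109. The gate of endocrine progenitors (at least 5 UMIs of Neurog3) held 85 and 47, and that of hormone-making cells (at least 3 UMIs of Chga) 39 and 11. Of the Chga cells, 8 in the control and 0 in the knockout-labelled library also had at least 5 UMIs of Neurog3. Outside the epithelium, the mesenchyme gate (collagen genes) held 1546 and 1237 cells, mesothelium 191 and 168, and endothelium 29 and 33. Median depth ran from 6444 UMIs per cell in control mesenchyme to 17689 in control tip cells. Of the markers kept for checking and not used for gating, 6 of 6 for endothelium and mesothelium and 7 of 7 for the Chga gate were highest in their own gate in both libraries. For tip cells this held for 6 of 6 in the control and 4 of 6 in the knockout-labelled library. It held for 4 of 6 in the Neurog3 gate and 4 of 7 in mesenchyme in each library, and the summed mesenchyme check genes were higher in endothelium (2369 CPM) than in mesenchyme (1346) in the control. The trunk gate had 2 of 6 check markers highest there in each library, and 4 and 3 of 6 when it was set against the epithelial gates alone. The Chga gate of the knockout-labelled library carried 1883 CPM of the tip check genes against 70.04 CPM in the control, and 2 of its 11 cells had tip genes.

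The label of the second library was not borne out by its target: Dpy30 stood at 268 CPM in knockout-labelled tip cells against 240.6 in control ones and was lower in 1 of the 7 gates, mesothelium. A 3' read count says nothing of a deletion elsewhere in the gene. The control library carried Ddx3y (34.4 to 98.1 CPM by gate) and at most 0.184 CPM of Xist, while the knockout-labelled one carried Xist (1226 to 2552 CPM) and no Ddx3y UMI, so the embryos differ in sex as well as in label. Haemoglobin genes made up 163.5 to 194.7 CPM of the control gates and 326 to 383.2 CPM of the knockout-labelled ones. Differences between the libraries below carry all of these at once, and the genotype, the sex and the embryo cannot be told apart.

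The promoters of Ldha, Hk2, Pgk1 and Slc2a2 are shown because these 4 genes carry the contrasts between cell types or libraries described below. Each line holds the 250 bases before a RefSeq start (GRCm38.p6). Capitals mark ACGTG or its reverse complement CACGT, a variant of the core of the hypoxia response element bound by HIF-1. Other variants of this core were not searched. Where ACGTG and CACGT overlap they make CACGTG, the E-box.
Ldha: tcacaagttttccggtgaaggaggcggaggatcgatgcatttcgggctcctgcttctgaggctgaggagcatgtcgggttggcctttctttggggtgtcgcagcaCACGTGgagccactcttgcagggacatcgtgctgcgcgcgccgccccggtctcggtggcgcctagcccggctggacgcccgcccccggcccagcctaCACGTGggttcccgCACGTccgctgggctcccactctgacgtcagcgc
Hk2: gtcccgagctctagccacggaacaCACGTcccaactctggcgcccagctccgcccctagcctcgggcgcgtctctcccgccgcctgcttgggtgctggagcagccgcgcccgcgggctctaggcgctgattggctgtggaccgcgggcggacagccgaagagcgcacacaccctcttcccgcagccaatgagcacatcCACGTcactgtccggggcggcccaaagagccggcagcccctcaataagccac
Pgk1: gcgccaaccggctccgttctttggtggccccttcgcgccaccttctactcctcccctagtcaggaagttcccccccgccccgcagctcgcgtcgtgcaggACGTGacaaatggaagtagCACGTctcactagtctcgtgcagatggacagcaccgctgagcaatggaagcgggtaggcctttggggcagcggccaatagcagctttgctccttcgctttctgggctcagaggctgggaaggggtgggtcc
Slc2a2: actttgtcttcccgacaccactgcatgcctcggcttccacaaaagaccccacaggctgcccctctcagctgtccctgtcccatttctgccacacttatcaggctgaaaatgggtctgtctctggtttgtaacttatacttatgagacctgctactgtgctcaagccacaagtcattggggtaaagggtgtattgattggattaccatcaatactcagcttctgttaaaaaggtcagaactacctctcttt
These stretches lie at chr7:46845554-46845803 (Ldha, plus strand), chr6:82774455-82774704 (Hk2, minus strand), chrX:106186850-106187099 (Pgk1, plus strand) and chr3:28697653-28697902 (Slc2a2, plus strand). The genes span chr7:46841475-46855627, chr6:82725025-82774454, chrX:106187100-106203699 and chr3:28697903-28731359 in GENCODE M21. The Ldha stretch has 3 separate matches, 2 of them the full CACGTG. Hk2 and Pgk1 have 2 matches each, and the Slc2a2 stretch has none. Windows from 250 bases before to 50 after the start were read for the 10 genes. Of 16 RefSeq windows 7 held ACGTG on either strand, in 6 of 10 genes (Slc2a1, Hk2, Aldoa, Pgk1, Pkm and Ldha). Among all mouse promoter windows 6447 of 32851 (19.62%) held it, or 5886 of 27025 genes (21.78%), and CACGTG was in 7.15% of windows. A match describes letters only, and Gpi1, Tpi1 and Eno1, like Slc2a2, have none in these windows.

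**Figure D1:**
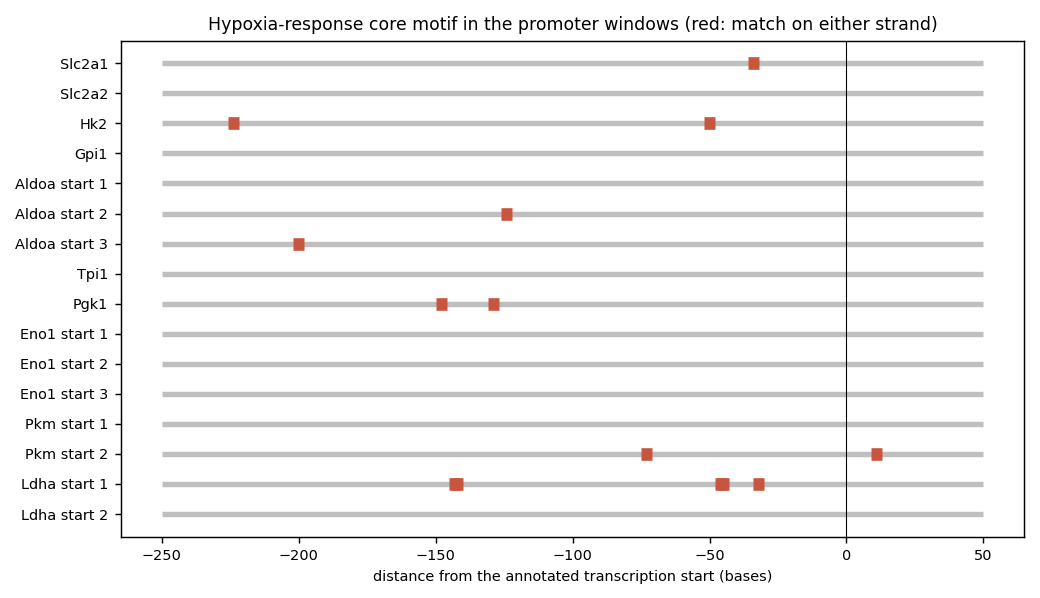
Positions of ACGTG, the searched variant of the hypoxia-response core, in the promoter windows of the 10 genes. The x axis is the distance in bases from each RefSeq transcription start, grey bars are the windows (several for genes with several starts) and red squares are matches on either strand; the first Ldha window holds 3 separate stretches and the Slc2a2 window none.

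Among the 7 cell gates, Slc2a2 lay past 1.5-fold from its trunk level in 5, Ldha in 4, and Hk2 and Eno1 in 2 each. Slc2a1, Gpi1, Tpi1 and Pkm did so in 1 gate each, and Aldoa and Pgk1 in 0. Each gate was set against the trunk within its own library, and a gene was counted only when it lay past 1.5-fold on the log2(CPM + 5) scale in the same direction in both libraries. Of 60 pairs of gene and gate, 3 were higher and 14 lower than trunk. The tip gate had 1 gene higher (Ldha) and 1 lower (Slc2a2) of 10, where 2.08% and 5.57% of all genes tested were higher and lower. The Neurog3 gate had 0 higher and 1 lower (Ldha), against 6.82% and 6.70%. The Chga gate had 0 higher and 4 lower (Slc2a2, Hk2, Eno1 and Ldha), against 14.8% and 18.7%. Mesenchyme had 0 higher and 4 lower (Slc2a2, Gpi1, Eno1 and Pkm), against 13.5% and 13.3%. Mesothelium had 0 higher and 1 lower (Slc2a2), against 11.5% and 11.9%. Endothelium had 2 higher (Slc2a1 and Ldha) and 3 lower (Slc2a2, Hk2 and Tpi1), against 9.59% and 22.4%. The median of the 10 genes against trunk was −1.14 (log2) in the Chga gate, −0.62 in mesenchyme and −0.48 in the Neurog3 gate, where the medians over all genes were −0.02, −0.04 and −0.03. In tip, mesothelium and endothelium it was −0.08, −0.06 and 0.19, and over all genes −0.17, −0.07 and −0.28.

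**Figure D2:**
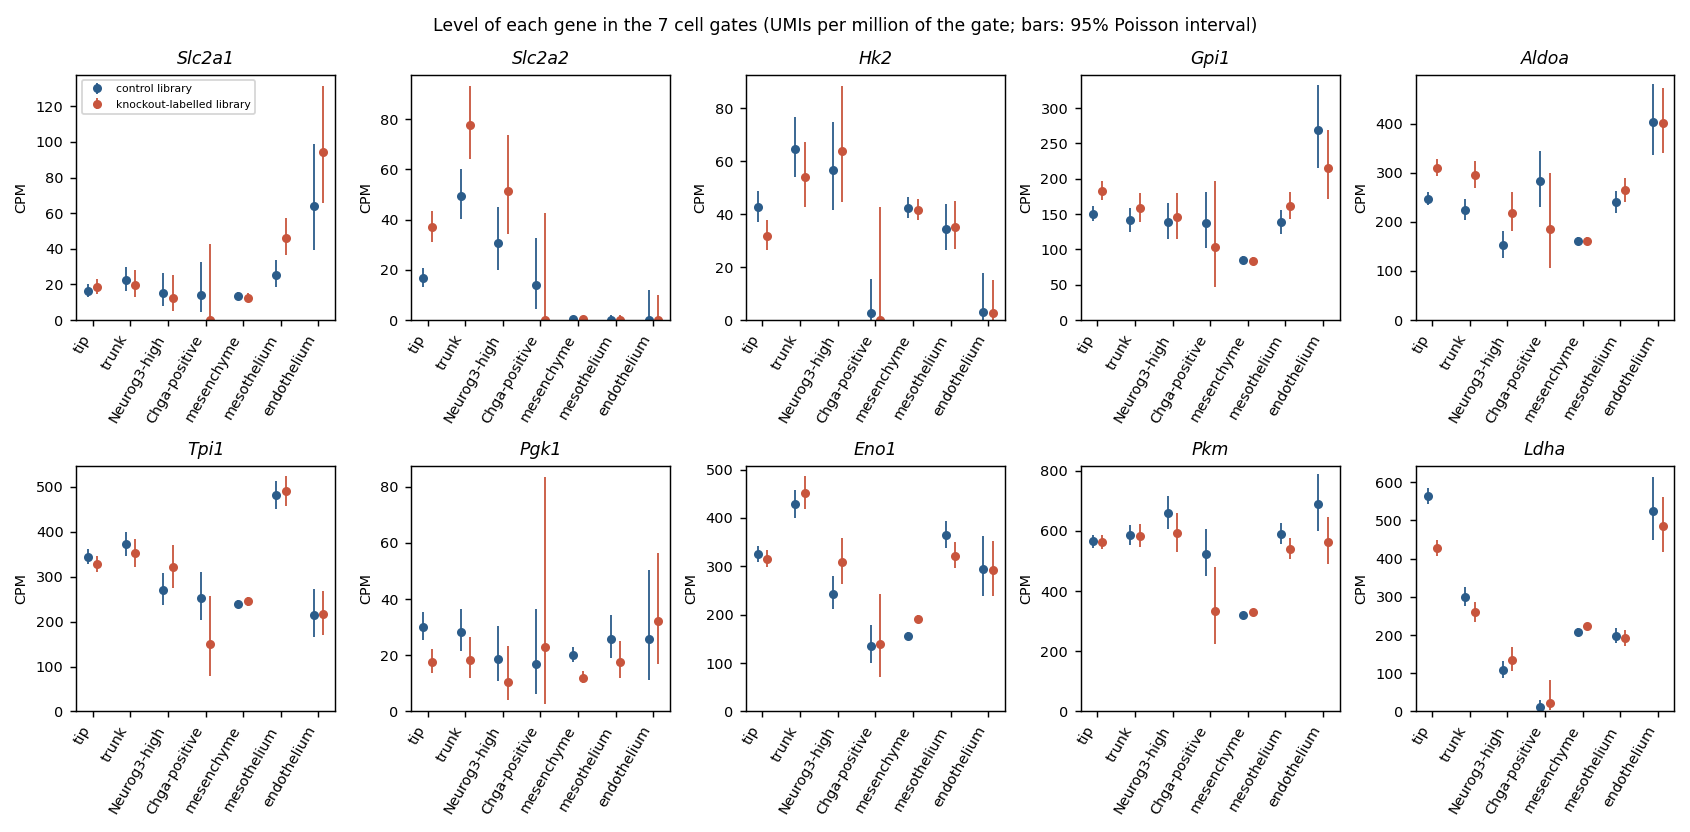
Level of each of the 10 genes in the 7 gates, 1 panel per gene. The y axis is CPM of the gate (linear, from 0), blue points are the control library, red points the knockout-labelled one, and bars are 95% Poisson intervals; Ldha falls from 564.3 CPM in control tip cells to 11.21 in control Chga cells, and Slc2a2 is at or near 0 outside the epithelium.

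Slc2a2 was found above background only in the epithelium. It stood at 16.62 CPM in control tip cells, 49.6 in trunk, 30.61 in Neurog3-high cells and 14.01 in Chga cells. The Chga value came from 5 UMIs in 1 cell of 39. The knockout-labelled library gave 36.96, 77.59 and 51.38 CPM in tip, trunk and Neurog3-high cells and no UMI in its 11 Chga cells, which allows up to 34.65 CPM. No UMI fell in mesothelium, where the limits were 1.583 and 1.72 CPM, or in endothelium, where they were 9.616 and 8.095. Mesenchyme, which should lack the transporter, had a Slc2a2 UMI in 0.3234% of cells in each library, at median depths of 6444 and 7823 UMIs, which is read here as the background. In trunk cells the share was 39.49% (62 of 157) and 61.47% (67 of 109), at 12127 and 13578 UMIs. With every cell thinned to 3000 UMIs the trunk shares were 16.67% of 156 and 23.85% of 109, and the mesenchymal ones 0.0652% and 0.0814%. Fewer cells with the transcript and less transcript per cell cannot be told apart in the CPM.

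Within the epithelium Slc2a2 ran opposite to the tip genes. When epithelial cells outside the Neurog3 and Chga gates were binned by the summed UMIs of the marker genes of the tip gate, control cells with 0 to 4 had 52.66 CPM, those with 5 to 19 had 27.09, those with 20 to 99 had 15.72 and those with 100 or more had 12.35. The knockout-labelled library gave 87.88, 42.81, 39.31 and 19.93 in the same order, so each step was lower than the one before it in both libraries. In both, the interval at 0 to 4 UMIs lay above all others, while the later neighbouring steps overlapped. Along Neurog3, over all epithelial cells outside the Chga gate, the level rose and then dropped. It was 25.83 CPM in control cells without Neurog3, 51.67 at 1 to 4 UMIs, 59.24 at 5 to 19 and 2.34 at 20 or more, which is 1 UMI in 47 cells. The knockout-labelled values were 46.98, 114.7, 93.72 and 13.44 CPM. In the control, the gate of Neurog3-high cells therefore joins a step with Slc2a2 transcripts and a step nearly without them. In the knockout-labelled library the last step rests on 4 UMIs in 3 of 26 cells (interval 3.66 to 34.41 CPM), so it was lower but not without the transcript. The cells without Neurog3 include tip cells, and both scales are markers of cell state read from the same cells.

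Slc2a1, which supplies basal glucose uptake in most tissues and is abundant in the endothelium of blood-tissue barriers, was highest in endothelium, at 64.11 CPM in the control (20 UMIs in 29 cells) and 94.44 in the knockout-labelled library (35 UMIs in 33 cells). It was 2.87-fold and 4.83-fold above trunk. The epithelial gates lay between 12.4 and 22.32 CPM wherever a UMI was seen, with overlapping intervals. Mesenchyme was at 13.55 and 12.67 CPM. Mesothelium stood at 25.32 CPM in the control, inside the range of the trunk interval, and at 45.87 CPM in the knockout-labelled library.

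The genes most alike in pattern were ranked by Pearson r of log2(CPM + 5) over the 14 pools (7 gates in 2 libraries, which share depth and free RNA) among 5018 genes. For Slc2a2 these were Psmc3 (r = 0.967), Kcnk1 (0.960), Habp2 (0.952), Rassf7 (0.951) and Errfi1 (0.950). For Slc2a1 they were Ost4 (0.947), Ywhah (0.920), Limch1 (0.912), Rps6ka3 (0.902) and Tnfaip1 (0.895). Slc2a1 and Slc2a2 themselves had r = −0.188.

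Hk2, the inducible hexokinase with high glucose affinity, was present in tip, trunk, Neurog3-high cells, mesenchyme and mesothelium. It was close to absent from control Chga cells and from endothelium. Control values were 42.64 CPM in tip, 64.48 in trunk, 56.52 in Neurog3-high cells, 42.49 in mesenchyme and 34.29 in mesothelium. The knockout-labelled library gave 31.68, 53.97, 63.78, 41.73 and 34.97 in these gates. Chga cells had 1 Hk2 UMI in the control (2.802 CPM, interval 0.0709 to 15.61) and 0 in the other library. That 0, in 11 cells, allows up to 34.65 CPM, which is above the tip level of the same library. Endothelium had 1 UMI in each (3.205 and 2.698 CPM). In Neurog3 steps Hk2 was highest at 5 to 19 UMIs, with 99.53 CPM in the control and 93.72 in the knockout-labelled library, and at 20 or more UMIs it was 14.04 and 36.95.

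Gpi1, which converts glucose-6-phosphate to fructose-6-phosphate, varied little within the epithelium, from 104.0 to 183.3 CPM over both libraries. It was lowest in mesenchyme (84.53 and 83.56 CPM) and highest in endothelium (269.2 and 215.9). Aldoa, which splits fructose bisphosphate, showed the same 2 ends, with 161 and 161.9 CPM in mesenchyme and 403.9 and 402 in endothelium, although control Neurog3-high cells, at 151.9, lay slightly below the mesenchyme. Tpi1, which interconverts the resulting triose phosphates, had another order. It was highest in mesothelium, at 481.1 and 490.8 CPM, above trunk at 372.5 and 352.2. It was lowest in control endothelium at 214.8 CPM and in knockout-labelled Chga cells at 150.2. Gpi1 below trunk in mesenchyme and Tpi1 below trunk in endothelium no longer passed 1.5-fold when the pools were scaled by median-of-ratios factors. The Gpi1 call was also lost with trimmed-mean factors.

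Pgk1, which makes the first ATP of the payoff phase and is X-linked, gave few UMIs, between 10.63 and 32.38 CPM over all gates and libraries, and no gate stood past 1.5-fold from trunk in both libraries. Eno1, the enolase of most tissues, was highest in trunk (428.1 and 451.4 CPM), then mesothelium (365.1 and 321.6) and tip (325.1 and 316). The intervals of mesothelium and tip overlapped in both libraries. It was lower in Neurog3-high cells (243.7 and 308.3) and in Chga cells (134.5 and 138.6). Mesenchyme was at 156.7 and 190.3 CPM. The 3' end of Eno1 is nearly identical to that of Eno1b, so the Eno1 counts may miss reads that match both genes. Pkm, the pyruvate kinase gene whose M1 and M2 isoforms are not resolved in gene counts, was within 335 to 689.1 CPM in every gate but mesenchyme, at 319.5 and 328.7. Along Neurog3 in the control it was 567.9, 558, 511.8 and 805.1 CPM from 0 to 20 or more UMIs, and in the knockout-labelled library 570.3, 548.2, 566.1 and 614.8.

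Ldha had the widest range. In the control it was 564.3 CPM in tip cells, 299.6 in trunk, 108.3 in Neurog3-high cells and 11.21 in Chga cells, where 4 UMIs were found in 39 cells. In the knockout-labelled library it was 428.1, 259.1, 134.6 and 23.1 CPM, the last from 2 UMIs in 1 of 11 cells. The order of the epithelial gates was the same in both, and neighbouring intervals overlapped in none of the steps from tip to Chga. Without the Chga cells that carried tip genes, Ldha had 3 UMIs in the control (9.196 CPM) and 0 in the knockout-labelled library. Outside the epithelium, endothelium was high at 525.7 and 485.7 CPM, and mesenchyme (209.2 and 222.5) and mesothelium (198.4 and 192.6) were between trunk and Neurog3-high cells.

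The share of cells with an Ldha UMI followed the levels at matched depth. Thinned to 3000 UMIs, 76.32% of 266 control tip cells, 45.51% of 156 trunk cells and 17.65% of 85 Neurog3-high cells had one, and 0 of 38 Chga cells, which allows a share of up to 7.895%. The knockout-labelled shares were 64.52%, 48.62%, 29.79% and 1 of 11 (9.091%). Without thinning, the control shares were 98.12%, 90.45%, 49.41% and 10.26%. Along the steps of Neurog3, Ldha fell from 479.4 to 333.6, 146.9 and 70.21 CPM in the control. In the knockout-labelled library the values were 385.3, 167.3, 146.2 and 124.3, with overlapping intervals among the last 3. Along the tip genes Ldha rose from 273.6 to 429.9, 587.1 and 599.9 CPM in the control, and from 232.8 to 331.8, 417.8 and 603.9 in the knockout-labelled library.

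**Figure D3:**
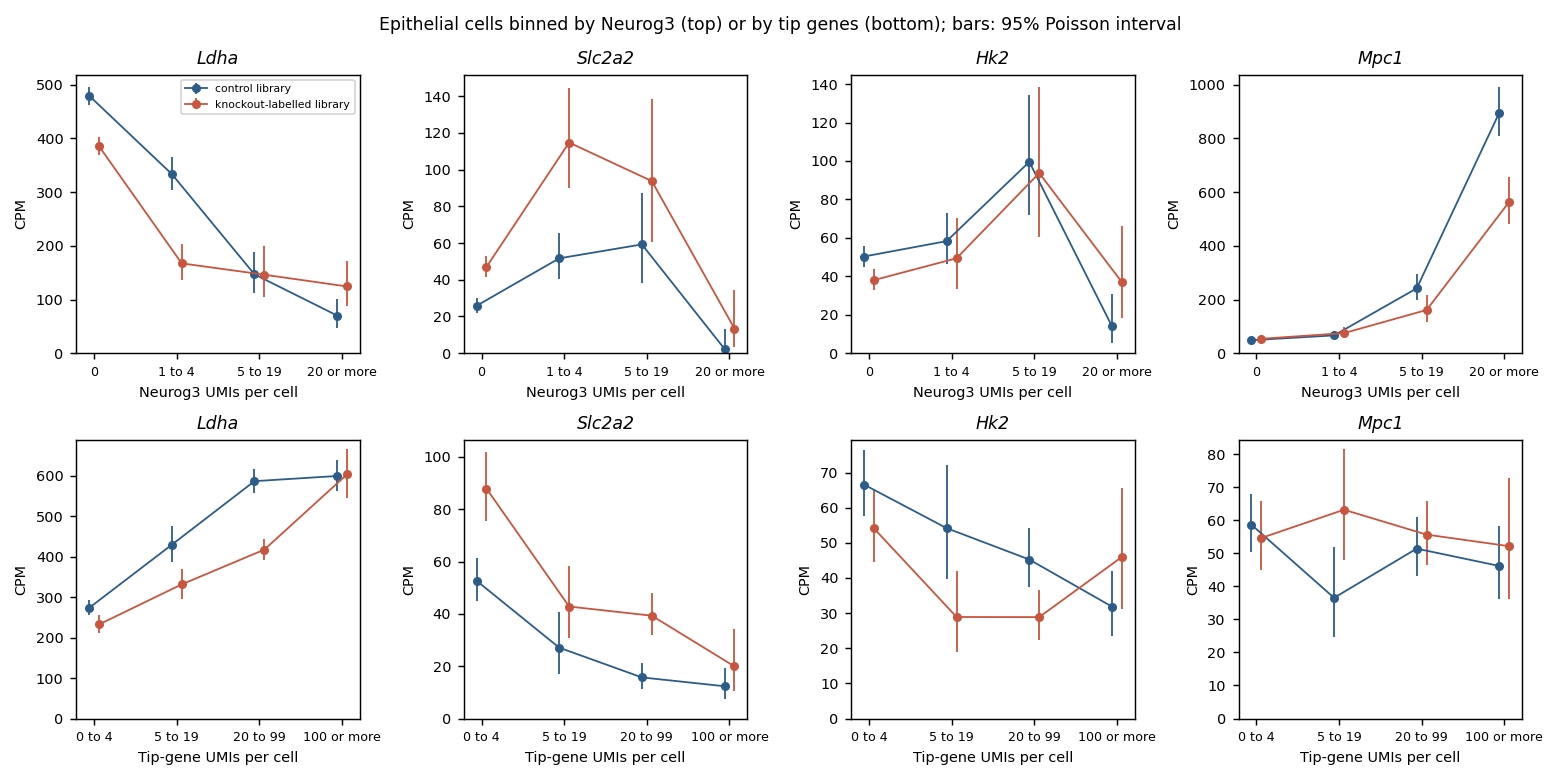
Ldha, Slc2a2, Hk2 and the pyruvate carrier gene Mpc1 in epithelial cells outside the Chga gate, binned by Neurog3 UMIs (top) and, outside the Neurog3 gate too, by tip-gene UMIs (bottom). The y axis is CPM (linear, from 0), blue is the control and red the knockout-labelled library, and bars are 95% Poisson intervals; as Neurog3 rises in the control, Ldha falls from 479.4 to 70.21 CPM and Mpc1 rises from 48.5 to 896.4.

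The authors' deposited table of gene levels by cluster shows the same genes, with folds read here as natural logs since the base is not stated. It is drawn from these libraries and is not an independent set of cells. In that table Ldha had an average log fold of −1.23 in the cluster led by Gcg, with a UMI in 13.6% of its cells against 79.7% elsewhere. In the cluster led by Neurog3 the value of the authors' deposited table was −1.16, with 18.4% against 84.4%. The authors' deposited table lists Hk2 at −0.33 in the Gcg cluster and −0.26 in the Neurog3 cluster. It also lists Slc2a2 at −0.35 in the Neurog3 cluster and 0.34 in the cluster led by Spp1. Eno1 (−0.52 and −0.45 in the Gcg and Neurog3 clusters), Tpi1 (−0.31 in the Gcg cluster) and Aldoa (−0.35 in the Neurog3 cluster) are the other members that the authors' deposited table names, and Slc2a1, Gpi1, Pgk1 and Pkm have no entry there.

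Other genes of glucose metabolism were taken from a list of 45, all of which are in the count tables. Of those with enough UMIs, 2 of 20 were higher and 3 lower in Neurog3-high cells than in trunk, where 6.82% and 6.70% of all genes were. One of the higher ones was Mpc1, a subunit of the mitochondrial pyruvate carrier. Aldoc (aldolase C), Pdk1 (which inhibits pyruvate dehydrogenase) and Tkt (transketolase of the pentose phosphate route) were lower. The median of the 20 was −0.17, and over all genes it was −0.03. Mpc1 stood at 53.57 CPM in control trunk and 571.1 in control Neurog3-high cells, and at 51.95 and 373.8 CPM in the knockout-labelled library. In Chga cells it was 134.5 and 138.6 CPM.

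In Chga cells 2 of 19 were higher (Pdk3 and Mpc1) and 4 lower than in trunk (Gapdh, Ldhb, G6pdx and Tkt), near the 14.8% and 18.7% of all genes. Gapdh, which works between Tpi1 and Pgk1, stood at 1759 CPM in control tip cells, 1655 in trunk, 1121 in Neurog3-high cells and 776.1 in Chga cells. The knockout-labelled values were 1610, 1797, 1242 and 542.9, with trunk above tip. Tip cells had 0 of 24 higher and 3 lower (Aldoc, Ldhb and Pck2), against 2.08% and 5.57% of all genes.

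Ldhb, the lactate dehydrogenase subunit that favours pyruvate formation, was low where Ldha was high among tip cells: 26.22 and 16.84 CPM in tip against 66.96 and 56.67 in trunk. It was highest in mesothelium (280.7 and 321.6 CPM). Mesenchyme had 6 of 32 genes higher than trunk (Slc2a3, Slc2a4, Slc16a3, Hk1, Pfkm and Ldhb) and 6 lower, against 13.5% and 13.3% of all genes. Mesothelium had 5 of 24 higher and 3 lower, against 11.5% and 11.9%. The lactate exporter Slc16a3 was at 28.49 and 29.81 CPM there, while trunk had no UMI in either library. Endothelium had 0 of 19 higher and 4 lower, against 9.59% and 22.4%.

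A list of 18 genes of the hypoxia response held members on both sides of trunk. In tip cells 3 of 13 were higher than in trunk (Bnip3, Ddit4 and Car9) and 1 lower (Vegfa), against 2.08% and 5.57% of all genes, with a median of 0.07 beside −0.17 over all genes. In Neurog3-high cells 2 of 9 were higher (Ddit4 and Vegfa) and 2 lower (Mif and Pdk1), against 6.82% and 6.70%. Chga cells had 0 of 8 higher and 1 lower, against 14.8% and 18.7%. Mesenchyme had 3 of 15 higher and 2 lower, against 13.5% and 13.3%. Mesothelium had 3 of 12 higher and 1 lower, against 11.5% and 11.9%. Bnip3 was among the higher genes in mesenchyme and mesothelium too. Endothelium had 2 of 10 higher and 3 lower, against 9.59% and 22.4%. Car9, a carbonic anhydrase strongly induced by low oxygen, stood at 41.64 and 21.87 CPM in tip cells against 10.42 and 5.397 in trunk.

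Between the libraries, most of the 10 genes differed little. Of the 61 pairs of gene and gate with at least 20 UMIs over both libraries, 4 were past 1.5-fold higher in the knockout-labelled library and 5 lower, and 9 further pairs of the 70 had too few UMIs. Per gate, 2 of 10 were past 1.5-fold in tip, where 4.08% of all genes tested were. The counts were 1 of 10 in trunk (7.45% of all genes), 2 of 10 in Neurog3-high cells (14.3%) and 3 of 5 in Chga cells (30.0%). They were 0 of 9 in mesenchyme (1.52%), 1 of 9 in mesothelium (8.39%) and 0 of 8 in endothelium (21.5%). The median of the measured members lay between −0.04 and 0.20 in all gates but Chga, where it was −0.60 over 5 genes and −0.05 over all genes.

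**Figure D4:**
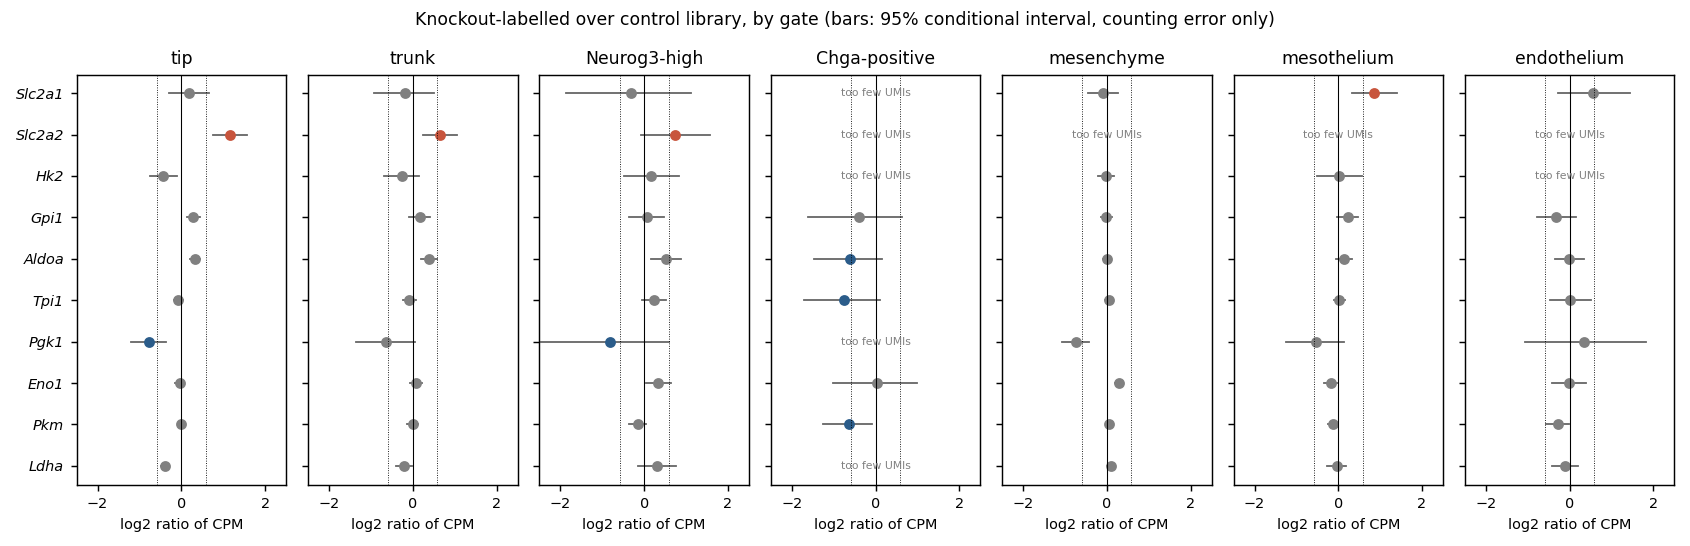
Log2 ratio of CPM, knockout-labelled over control library, for each gene (rows) in each gate (panels). Bars are 95% conditional intervals for counting error, dotted lines mark 1.5-fold, and coloured points passed 1.5-fold on the log2(CPM + 5) scale (red higher, blue lower), which shrinks low genes such as Pgk1 in mesenchyme; Slc2a2 is red in tip, trunk and Neurog3-high cells.

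Slc2a2 stood higher in the knockout-labelled cells of each epithelial gate where it could be measured. In tip cells the level was 16.62 CPM (13.23 to 20.6) in the control and 36.96 (31.22 to 43.44) in the knockout-labelled library, 2.22-fold (1.69 to 2.95). A UMI was present in 21.8% of control and 44.24% of knockout-labelled tip cells, and in 6.391% and 11.06% after thinning to 3000 UMIs. The trunk ratio was 1.56-fold (1.19 to 2.07), and the Neurog3-high ratio 1.68-fold (0.954 to 2.97), whose interval includes no difference. The tip call held under 20 of 20 alternative settings, and the trunk call under 14 of 20, with a log2 ratio between 0.44 and 0.69. Some of these settings could not move the ratios. Changed UMI minimums, cells added to mesenchyme and removal of Chga cells with tip genes left them at 0.9568 and 0.5969. The tip gate at 20 UMIs also left the trunk ratio as it was. The check genes of the tip gate were lower in the knockout-labelled library, 2777 against 4000 CPM. In each of the 4 steps of tip genes given above Slc2a2 was higher in the knockout-labelled library. The intervals of the libraries did not overlap at 0 to 4 and 20 to 99 UMIs, and they overlapped at the other steps. The part that embryo, sex or maturity have in this difference was not tested.

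Slc2a1 differed in mesothelium, 25.32 CPM (18.67 to 33.57) against 45.87 (36.37 to 57.09), 1.81-fold (1.25 to 2.65). It passed in 19 of 20 settings, some of which leave the mesothelium pool unchanged. With cells thinned to 3000 UMIs, 8.421% of 190 and 12.5% of 168 mesothelial cells had a UMI. In endothelium its ratio was 1.47-fold (0.827 to 2.69). The tip, trunk and mesenchymal ratios were 1.13, 0.876 and 0.935, each with an interval that includes 1.

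Pgk1 was lower in the knockout-labelled library in the 5 gates other than Chga and endothelium. In tip cells it was at 30.23 and 17.6 CPM, 0.582 of the control level (0.432 to 0.778), and in mesenchyme at 20.09 and 11.98 CPM, 0.596 of it (0.474 to 0.747). The intervals of trunk, Neurog3-high cells and mesothelium include 1. The tip ratio passed 1.5-fold in 15 of 20 settings, some of which leave the tip pool unchanged. After the mesenchymal ratio was subtracted it came to −0.08 (log2). Among 351 X-linked genes tested in tip cells the median log2 ratio was 0.01, and 6 were as low as Pgk1 or lower. Past 1.5-fold lower were 8 of the 351, beside 222 of 10428 over all genes. As low as Pgk1 or lower were 10 of 291 X-linked genes in trunk and 6 of 201 in Neurog3-high cells. In mesenchyme 5 of 434 were, and in mesothelium 32 of 321. The part that sex or X-linkage has in the Pgk1 difference was not tested.

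In the epithelial gates other than Chga, Aldoa was higher in the knockout-labelled library by less than 1.5-fold. It was at 247 and 309.5 CPM in tip, 224.7 and 295.5 in trunk, and 151.9 and 217.9 in Neurog3-high cells. The fold intervals exclude 1 in each. In Chga cells Aldoa was lower, as given below. In mesenchyme the 2 libraries gave 161 and 161.9 CPM. Gpi1 moved likewise in tip cells, from 150.3 to 183.3 CPM, 1.22-fold (1.10 to 1.35). Hk2 was lower there, 42.64 and 31.68 CPM, 0.743 of the control (0.591 to 0.930). Ldha in tip cells was 0.759 of the control level (0.714 to 0.806), and 0.865 (0.759 to 0.984) in trunk. By tip genes, Ldha was lower in the knockout-labelled library at 20 to 99 UMIs (587.1 against 417.8 CPM) and stood at 599.9 and 603.9 CPM at 100 or more. In tip cells 1 of 14 measured hypoxia-list genes was past 1.5-fold (Car9, lower in the knockout-labelled library), against 4.08% of all genes. The median log2 ratio of the 14 was 0.04, beside 0.01 over all genes. Neurog3-high cells had 1 of 9 higher (Bnip3) and 1 lower (Ddit4), against 14.3%. Chga cells had 0 of 4 higher and 2 lower, against 30.0%. Trunk (0 of 12), mesenchyme (0 of 16), mesothelium (0 of 12) and endothelium (0 of 4) had none, against 7.45%, 1.52%, 8.39% and 21.5%. Tpi1, Eno1 and Pkm in tip and trunk had ratios from 0.945 to 1.05, all with intervals that include 1.

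In Chga cells Aldoa (283 and 184.8 CPM), Tpi1 (252.2 and 150.2) and Pkm (523.9 and 335) were past 1.5-fold lower in the knockout-labelled library. These rest on 16, 13 and 29 UMIs in 11 cells. Without the 2 cells of each library that carried tip genes the values were 266.7 and 204.9 CPM for Aldoa, 254.4 and 190.2 for Tpi1 and 524.2 and 395.1 for Pkm. None of these 3 was then past 1.5-fold. The control Chga gate also held 8 cells with at least 5 UMIs of Neurog3 and the knockout-labelled one 0. The part of these cells in the Chga ratios was not tested.

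Of the wider list of 45 genes, 0 were past 1.5-fold between the libraries in tip (25 measured), trunk (21), Chga cells (11) and mesenchyme (36), where 4.08%, 7.45%, 30.0% and 1.52% of all genes were. In Neurog3-high cells 0 of 19 were higher and 3 lower (Pdk2, Mpc1 and Pck2), where 14.3% of all genes were past 1.5-fold. Mpc1 was 571.1 CPM (521.4 to 624.2) in the control and 373.8 (325.1 to 427.8) in the knockout-labelled library. It rises with Neurog3, and within the step of 20 or more Neurog3 UMIs it was 896.4 and 564.4 CPM. In mesothelium 1 of 24 was higher (Eno3) and 3 lower (Slc16a1, Pdha1 and Tkt), against 8.39% of all genes. Tkt stood there at 199.9 and 125.6 CPM. In endothelium 0 of 12 were higher and 3 lower (Pfkl, Pdhb and Pgd), near the 21.5% of all genes.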

How the data were processed

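Groups were taken from the sample titles, with 1 library each. The authors' matrices, deposited as UMI counts by gene and cell barcode, come from GRCm38 (mm10) and Cell Ranger (version not given in the sources used here) according to the submitters' processing notes. Seurat 2 and 3 are named there too, with no role. The authors' cluster table holds, per the file headers, average log folds, read as natural log, and the fraction of cells with the gene inside and outside a cluster. The p-values that the authors deposited in it were not used. All columns of per-sample values were mapped. Some genes are not reported here.

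Members and gene lists were chosen with earlier results of these data known. The 10 members, list genes past 1.5-fold (apart from those not reported) and the 5 most alike genes of Slc2a1 and Slc2a2 are named. Cells were kept with at least 500 genes, 1000 UMIs and at most 10% mitochondrial UMIs, and the top 0.8% per 1000 barcodes by a simulated-doublet score were removed, leaving 3749 of 3900 and 2938 of 3044. Classes needed 3 UMIs of Epcam and Cdh1 (epithelium), of Upk3b, Upk1b, Lrrn4 and Msln (mesothelium) or of Pecam1, Cdh5, Kdr and Esam (endothelium), with similar immune and neural classes, and no second class. Mesenchyme needed 10 collagen UMIs and no class marker, and epithelial cells had fewer than 10. Within the epithelium, the Chga gate came before the Neurog3 gate, then tip (5 UMIs) and trunk (5 UMIs). Cells without markers, 1227 and 1000, were left out.

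UMIs were summed per gate and divided by the gate's total. Shares have Clopper-Pearson and ratios conditional binomial intervals. A difference past 1.5-fold on log2(CPM + 5), for genes with 20 UMIs, was counted, and a limit for 0 is 3 counts. PCR duplicates are removed by the UMIs, and intervals cover counting error only. The ratio interval and the fold rule were tried on Poisson counts simulated from the trunk pools. These counts hold no difference between embryos, and the gates, doublet removal and thinning were not tried on them. Alternatives changed the cell filter, doublets, gate minimums, scaling (edgeR 4.0.16 factors), pooling, depth, pseudocount, UMI minimum, cell cycle and reference gate. Python 3.11.15, numpy 2.4.6, scipy 1.17.1, scikit-learn 1.9.0 and R 4.3.3 were used. The 3' copies were searched in the last 400 bases of annotated transcripts at 97% identity.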

Additional observations from a re-analysis of the deposited data

Results flagged for a closer look

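Epithelial cells that met no gate held Slc2a2 at 58.81 CPM in the control (82 cells) and 116.5 CPM in the knockout-labelled library (44 cells), a signal in cells that the comparisons above do not use. Neural cells, also in no comparison, held Hk2 at 23.4 CPM in the control (6 UMIs in 32 cells) and 46.62 CPM in the knockout-labelled library (24 UMIs in 43 cells). Both are set against the control level in the same cells, and neither difference was tested.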

How the results depend on the processing

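The members' ratios between the libraries and their calls were recomputed under up to 20 settings (up to 19 against trunk), 3 of which (a tip gate at 20 UMIs, cells without a marker added to mesenchyme, and Chga cells without tip genes) were chosen after seeing the data. The 9 pairs of gene and gate past 1.5-fold between the libraries became 4 with the mean over cells, 3 with a pseudocount of 20 CPM, 11 with one of 1 CPM and 13 with a minimum of 1 UMI. With cells thinned to 3000 UMIs 7 were past it, of which 3 were among the 9. Tpi1 in Chga cells changed sign, to 0.20 on the log2 scale, with cells thinned to 3000 UMIs. The 17 pairs against trunk ranged from 14 to 22. The Slc2a2 ratio in tip cells ran from 0.64 to 1.11. The cause of these shifts was not tested. No paired analysis was possible because each group is 1 library. Fewer than 20 UMIs were found in 9 of 70 pairs, among them Slc2a2 in mesenchyme, mesothelium and endothelium. Bins, thinned shares, wider lists and ranks of likeness were not recomputed.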

Other observations

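Immune cells, 85 in the control and 23 in the knockout-labelled library, held the highest Hk2 of all pools, 159.1 and 128.5 CPM, with a UMI in 70.59% and 60.87% of cells. Their Gpi1 was 372.4 and 370 CPM and their Ldha 608 and 775.1 CPM, while Slc2a1 was at 8.633 and 3.895 CPM and Slc2a2 had no UMI. Neural cells held the highest Pkm, 709.8 and 804.1 CPM, above every gate in both libraries, with Ldha at 304.2 and 378.8 CPM.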
